A study of Mus musculus with 24 samples.

Results

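Oligodendrocyte precursor cells were followed in forebrain RNA through 9 genes that mark them: Pdgfra, Cspg4, Gpr17, Sox6, Ptprz1, Vcan, Lhfpl3, C1ql1 and Bcan. The genes were chosen by name, and every Affymetrix probe set (a group of short probes read as 1 value) annotated to only one of them was used, 26 in all. A gene is described by its brightest probe set (highest mean signal, 24 arrays), and all 9 were among the 18193 genes tested. The animals were TgCRND8 transgenic mice, labelled with the transgene APPSwe/Ind, and wild-type littermate controls. Each was taken at 70, 80 and 150 days of age, with 4 mice and 4 arrays in each of the 6 groups. The transgene is a human amyloid precursor protein with the Swedish and Indiana familial mutations under a prion protein promoter, which is active in many neurons and is not specific to glia. All mice gave the same tissue, forebrain without olfactory bulb, cerebellum or brainstem. The labels give no sex.

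Oligodendrocyte precursor cells, also called NG2 glia, are the dividing cells of the oligodendrocyte lineage and persist through adult life in grey and white matter. PDGF signals through the receptor encoded by Pdgfra keep them dividing. As they commit to differentiation they lose Pdgfra and Cspg4, pass through a short stage that expresses Gpr17, and then switch on the myelin genes. Several of the markers are shared with other cells: Pdgfra with fibroblasts, Cspg4 with pericytes, Sox6 with interneurons, and Ptprz1, Vcan and Bcan with astrocytes or neurons.

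Signals are log2 values, so that a difference of 1 is a doubling, and array medians lay between 4.28 and 4.375. The median correlation of an array with the others was between 0.9926 and 0.9966. Control array 3 of day 70 stood apart along the first principal component of all genes, at -17.1, while the other 3 arrays of its group lay between 3.24 and 13.66. Arrays of day 80 reached similar values, down to -18.78 in control array 3 of that age. Control array 3 of day 70 was the lowest of its group in 6 of the 9 precursor genes, and day 70 differences without it are given in the account of the genotypes. Xist, high in female cells, was low in 5 arrays of days 70 and 80 and in none of day 150. These were control array 4 of day 70, and control arrays 1 and 4 and TgCRND8 arrays 1 and 3 of day 80. At day 70 the genotypes were thus not balanced in Xist. Neither were the ages, since most of the low arrays were of day 80. In such tissue RNA, fewer cells of a type and less RNA per cell cannot be told apart.

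The probe sets differed in how far they stood above the dim end of the arrays. The chosen probe set of C1ql1 lay below its array's median in all 24 arrays. Of the 8 Vcan probe sets, 3 lay below the lower quartile of their array in all 24 arrays, as did the third Pdgfra probe set, 1438946_at. The chosen probe sets of the other 8 genes were above the array median throughout. Gpr17 and C1ql1 had 1 probe set each, so a second reading within the same array was not to be had for them.

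**Figure D1:**
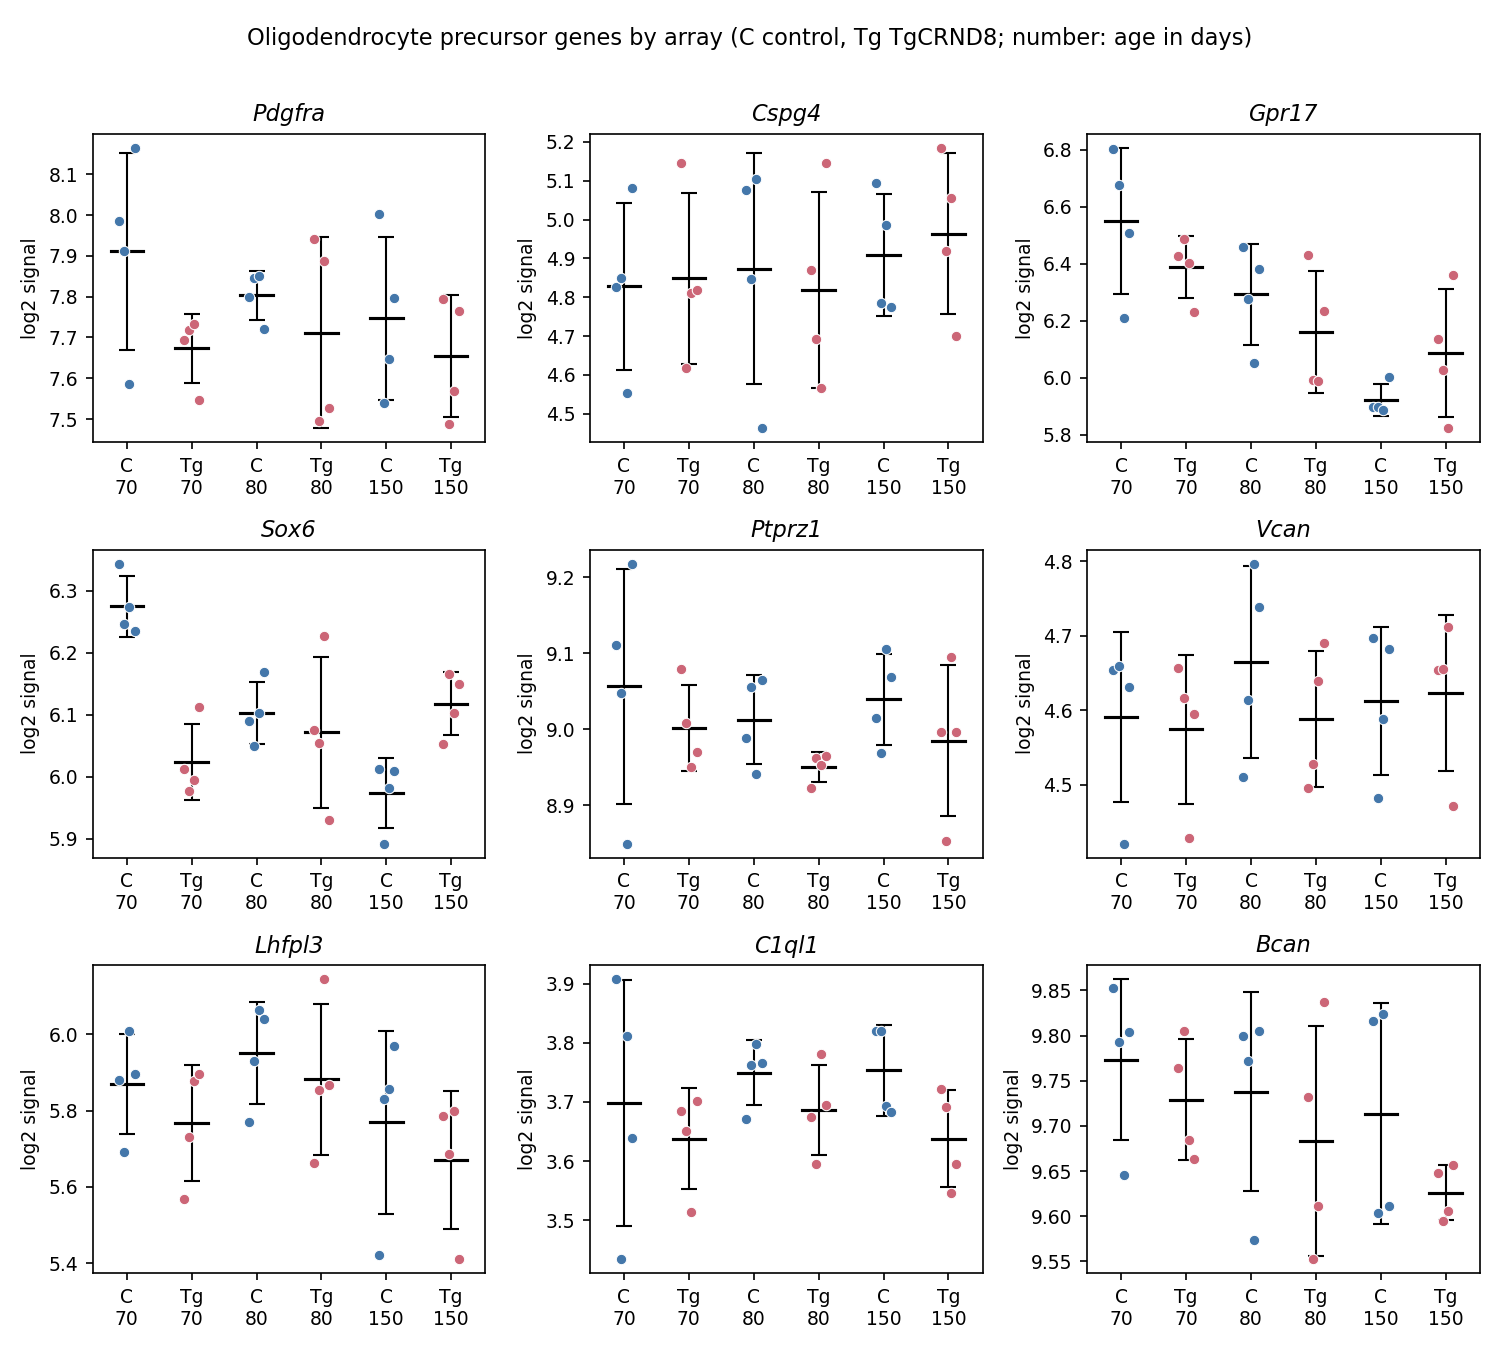
Log2 signal (y axis) of each precursor gene in every array, by group along the x axis (C control in blue, Tg TgCRND8 in red, with age in days). Points are arrays, horizontal bars group means and whiskers 1 SD over 4 arrays. Gpr17 runs from 6.55 in day 70 controls to 5.92 in day 150 controls, while for most other genes the groups overlap.

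The first comparison asked whether the precursor genes differed between TgCRND8 and control mice at each age. None of the 9 passed at any age by limma with Benjamini-Hochberg adjustment, where passing means an adjusted p under 0.05 over all genes tested. At day 70, 0% of all genes passed, and 1 of the 9 (Sox6) had an unadjusted p under 0.05 against 3.25% of all genes. At day 80 again 0% passed, with 0 of the 9 under an unadjusted 0.05 against 3.77% of all genes. At day 150, 0.121% of all genes passed by limma, and 1 of the 9 (Sox6 again) had an unadjusted p under 0.05 against 4.38%.

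Most of the precursor genes read lower in TgCRND8, by small amounts. At day 70, 8 of 9 were lower, against 51.3% of all genes, with a median difference of -0.06 log2 beside -0.0031 over all genes. At day 80, 9 of 9 were lower, against 49.1% of all genes, with a median of -0.06. At day 150, 5 of 9 were lower, against 49.9%, with a median of -0.05. The 9 genes share arrays and were not tested as a group. Averaged over the 3 ages, 8 of 9 were lower against 51% of all genes, and 0 passed by limma against 0.0385%. In that mean 1 of the 9, Pdgfra, had an unadjusted p under 0.05, against 3.16% of all genes. Without control array 3 of day 70, 9 of 9 were lower at that age, with a median of -0.09, and 0 passed by limma. That array was the lowest of its group in 6 of the 9 genes, so leaving it out must raise the control means of those 6. The differences were then -0.35 for Pdgfra, -0.28 for Gpr17, -0.25 for Sox6, -0.12 for Ptprz1 and -0.09 for Bcan. Those of Vcan (-0.07), Cspg4 (-0.07), Lhfpl3 (-0.05) and C1ql1 (-0.02) were smaller.

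**Figure D2:**
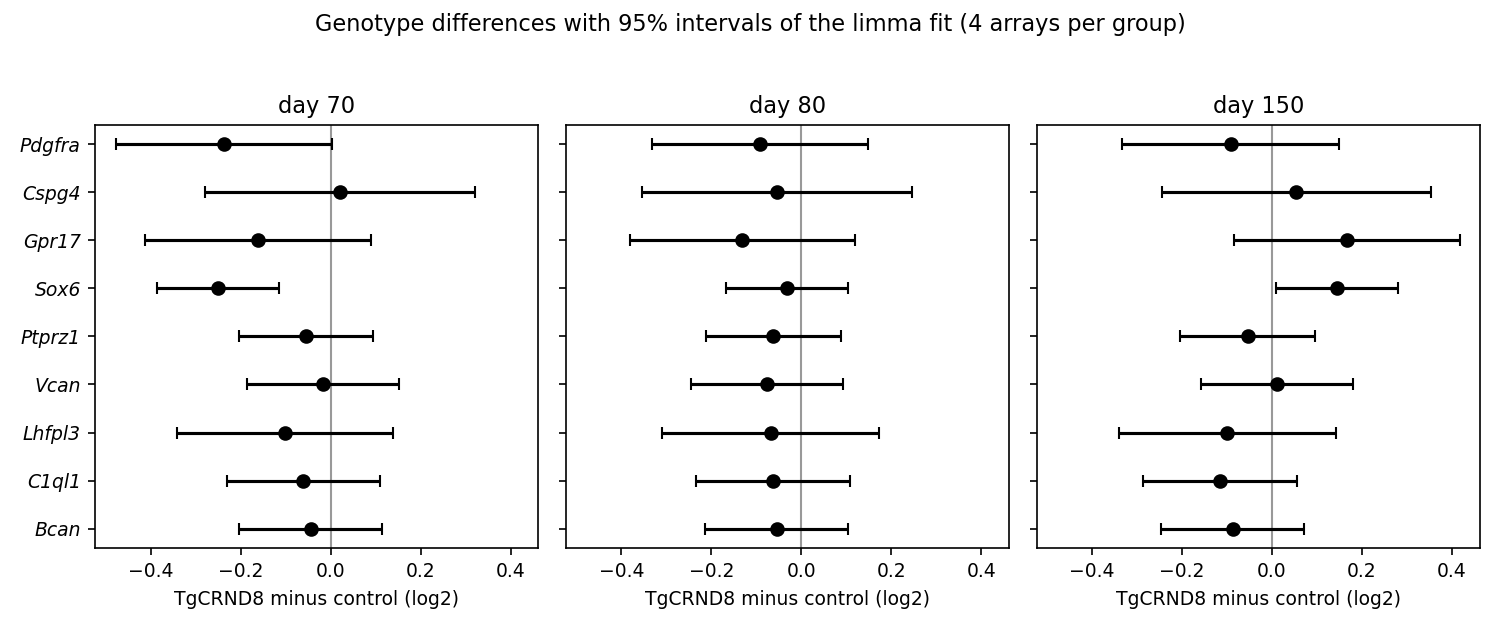
Difference of TgCRND8 minus control (x axis, log2) for each precursor gene at the 3 ages, with 95% intervals from the limma fit, 4 arrays per group. Most intervals include 0; those of Sox6 do not at day 70 (-0.25) and at day 150 (0.14).

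Pdgfra encodes the receptor for PDGF-A, the mitogen of precursor cells. At day 70 its 4 control arrays read 7.98, 7.91, 7.59 and 8.16, and the 4 TgCRND8 arrays 7.69, 7.72, 7.73 and 7.55. The control group was wide, and its lowest array lay among the TgCRND8 arrays while the other 3 lay above all of them. The difference was -0.24 log2 (SE 0.117; 7.67 ± 0.09 against 7.91 ± 0.24, mean ± SD, n = 4; two-sided exact permutation p = 0.114). Without control array 3, the lowest control and so one whose removal must widen the difference, it was -0.35 (adjusted p = 0.942 by limma). At day 80 and at day 150 the difference was -0.09 at both ages, with each pair of groups overlapping.

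The mean genotype difference of Pdgfra over the 3 ages was -0.14 log2 (SE 0.0674, 95% interval -0.28 to -0.0019; exact permutation p = 0.0593). The second Pdgfra probe set, 1421916_at, differed by 0.03 at day 70, by 0.13 at day 80 and by -0.00040 at day 150. The lower reading at every age was thus on the brightest probe set and not on the second.

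Fibroblasts also express Pdgfra. At day 70, 5 of 7 fibroblast genes read higher in TgCRND8 with a median of 0.09, and 0 passed by limma. Their per-array mean, as a deviation from the mean over all arrays, ran from -0.04 in controls to 0.05 in TgCRND8. At day 80 it ran from 0.04 in controls to -0.01 in TgCRND8, and at day 150 from -0.01 to -0.02. The part of fibroblasts in the Pdgfra values was not tested.

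Sox6 encodes a transcription factor that holds precursor cells back from differentiation, and interneurons also express it. At day 70 the control arrays read 6.34, 6.25, 6.27 and 6.24, and the TgCRND8 arrays 6.01, 5.98, 5.99 and 6.11. All 4 TgCRND8 arrays lay below all 4 controls, as was the case for 1.26% of all genes. The difference was -0.25 log2 (SE 0.0659; 6.02 ± 0.06 against 6.27 ± 0.05, n = 4; exact permutation p = 0.0286, the smallest that 4 against 4 can give), and it did not pass by limma (adjusted p = 0.9997). At day 80 the control arrays read 6.09, 6.05, 6.10 and 6.17, and the TgCRND8 arrays 6.08, 6.05, 6.23 and 5.93. The day 80 groups overlapped, with a difference of -0.03.

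At day 150 the order of the Sox6 groups was the opposite of that at day 70. The control arrays read 6.01, 5.89, 5.98 and 6.01, and the TgCRND8 arrays 6.05, 6.17, 6.10 and 6.15. All 4 TgCRND8 arrays lay above all 4 controls, as was the case for 1.53% of all genes. The difference was 0.14 log2 (SE 0.0659; exact permutation p = 0.0286; adjusted p = 0.9995 by limma). The genotype difference at day 150 was 0.28 above the mean of days 70 and 80 (SE 0.0807, adjusted p = 0.648 by limma, where 0.011% of all genes passed). Against day 70 alone it was 0.39 above (SE 0.0932, adjusted p = 0.630 by limma). This last comparison was chosen after the values were seen.

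Ordered by level, the Sox6 groups ran from controls of day 70 (6.27) through TgCRND8 of day 150 (6.12), controls of day 80 (6.10), TgCRND8 of day 80 (6.07) and TgCRND8 of day 70 (6.02) to controls of day 150 (5.97). Only the first step, from controls of day 70 to the next group, separated groups that did not overlap. The comparisons with the controls of day 70 share those 4 arrays. Among controls the day 150 arrays all lay below the day 70 arrays, as for 2.53% of all genes, with a difference of -0.30 log2 (SE 0.0659, exact permutation p = 0.0286, adjusted p = 0.200 by limma). In TgCRND8 the same difference was 0.09. Without control array 3 of day 70 the difference in controls was also -0.30.

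The 4 Sox6 probe sets did not share 1 pattern. On 1427677_a_at the TgCRND8 arrays of day 70 read 5.004, 4.91, 5.02 and 5.07, and the controls 5.17, 5.51, 5.24 and 5.45. These groups did not overlap either, and the difference was -0.34 log2 (SE 0.110). This probe set reads the same mice as the first, and the share of all probe sets without overlap was not counted. At day 150 that probe set gave 0.14 with overlapping groups. Probe set 1447655_x_at gave -0.05 at day 70 and 0.03 at day 150, and the dim 1426018_a_at gave 0.11 at both ages. Of 6 interneuron genes, 4 were lower in TgCRND8 at day 70 (median -0.06) and 4 were lower at day 150 (median -0.09). None of them passed by limma at those ages, and 1 of them had an unadjusted p under 0.05 at day 70 and 0 at day 150.

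**Figure D3:**
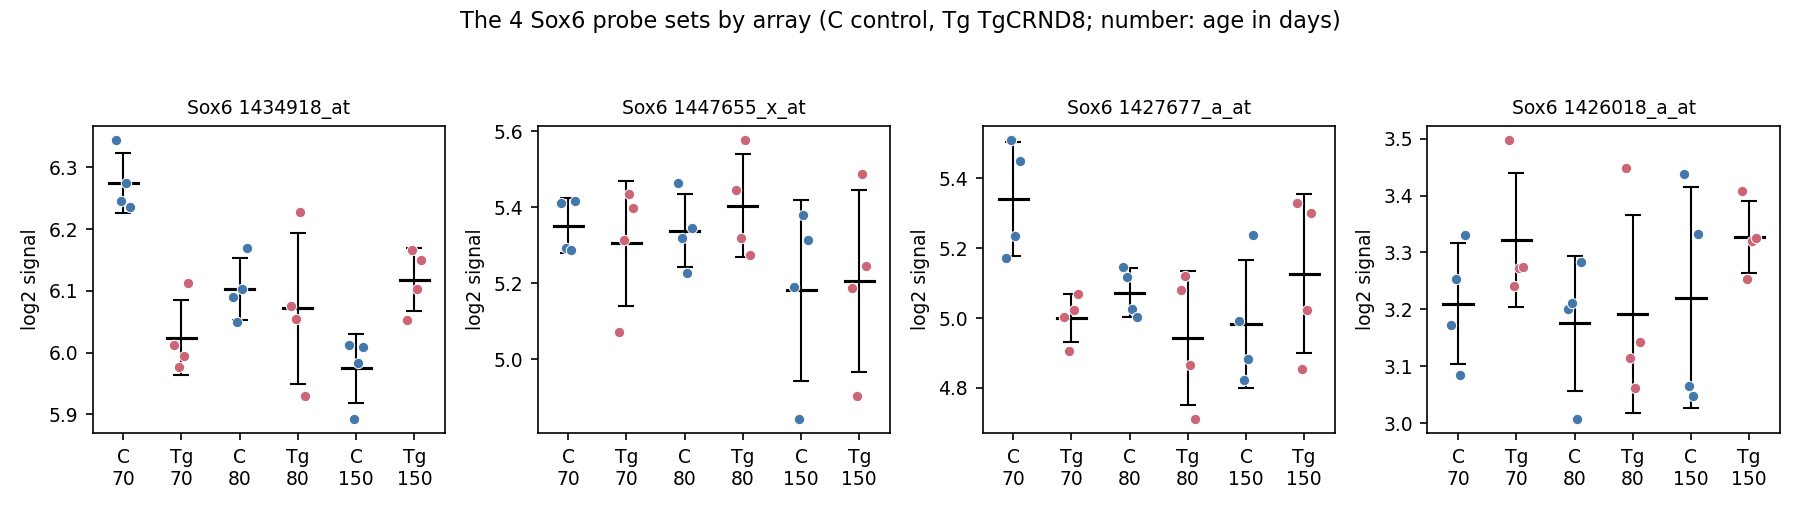
Log2 signal (y axis) of the 4 Sox6 probe sets in every array by group (x axis: C control, Tg TgCRND8, age in days), ordered from bright to dim. Points are arrays, bars means and whiskers 1 SD over 4 arrays. At day 70 the arrays of the 2 genotypes do not overlap on 1434918_at (-0.25) and 1427677_a_at (-0.34); the difference is -0.05 on 1447655_x_at and 0.11 on 1426018_a_at.

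Sox6 is transcribed from several starts, and RefSeq (GRCm38.p6) lists 6 promoter windows for it, each from 250 bases before to 50 after a start. For 7 of the 9 genes such windows were listed, 12 in all. They were searched on both strands for AACAAT, the core that SOX proteins bind, and for CAGCTG, an E-box of the kind that basic helix-loop-helix factors such as OLIG2 bind. AACAAT was in 1 of the 12 windows and in 10.7% of the 32851 windows of all genes, and CAGCTG was in 2 of the 12 and in 16.3% of all. The windows that hold a match are shown, in lower case with the matches in capitals, written 5′ to 3′ along the gene. Those of Sox6 lie on the minus strand and that of Lhfpl3 on the plus strand.
Lhfpl3 chr5:22745804-22746103: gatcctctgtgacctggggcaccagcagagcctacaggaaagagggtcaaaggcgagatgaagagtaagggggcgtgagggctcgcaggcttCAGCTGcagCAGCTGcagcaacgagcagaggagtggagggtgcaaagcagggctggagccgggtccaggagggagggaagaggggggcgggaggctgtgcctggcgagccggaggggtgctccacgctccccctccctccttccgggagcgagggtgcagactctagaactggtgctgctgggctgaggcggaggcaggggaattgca
Sox6 chr7:115846091-115846390: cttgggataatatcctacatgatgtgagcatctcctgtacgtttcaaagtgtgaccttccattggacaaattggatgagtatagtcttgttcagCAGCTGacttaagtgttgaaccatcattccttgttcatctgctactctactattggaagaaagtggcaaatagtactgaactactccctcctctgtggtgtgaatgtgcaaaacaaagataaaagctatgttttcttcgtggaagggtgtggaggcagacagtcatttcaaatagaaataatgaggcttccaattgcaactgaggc
Sox6 chr7:115824661-115824960: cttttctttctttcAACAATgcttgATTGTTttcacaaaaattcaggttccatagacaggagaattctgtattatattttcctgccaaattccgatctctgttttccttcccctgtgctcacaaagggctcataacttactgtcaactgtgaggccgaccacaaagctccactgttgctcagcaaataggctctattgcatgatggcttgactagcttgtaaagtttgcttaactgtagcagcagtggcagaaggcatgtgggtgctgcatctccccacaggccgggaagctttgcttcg
The Lhfpl3 window holds CAGCTG as a pair separated by 3 bases, and the last Sox6 window holds AACAAT in both orientations close together. The arrays do not read which start was used, so these matches are a description of the sequence.

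Cspg4, Vcan and Bcan encode proteoglycans of the precursor surface and matrix: NG2, versican and brevican. NG2 gives the cells their other name, and pericytes carry it too. Over the 24 arrays Cspg4 ran from 4.46 to 5.18, with the lowest and highest arrays in controls of day 80 and TgCRND8 of day 150. Its groups overlapped at every age, and its genotype difference was 0.02 at day 70, -0.05 at day 80 and 0.05 at day 150 (SE 0.145 at each). The 95% interval at day 150, -0.24 to 0.35, shows how little 4 arrays with this spread can exclude. Of 7 pericyte genes, 0 passed by limma at any of the 3 ages, with medians of 0.02, 0.06 and -0.03 at days 70, 80 and 150.

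Vcan, a matrix proteoglycan that precursors secrete, ran from 4.42 to 4.80. Its genotype differences were -0.02, -0.08 and 0.01 at days 70, 80 and 150 (SE 0.0818). In the day 70 controls array 3 read 4.42 while the other 3 read 4.63 to 4.66. Without that array the day 70 difference was -0.07. The largest difference among the 8 Vcan probe sets at day 70 was 0.19, on 1433044_at, which lay below the lower quartile in every array.

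Bcan, a proteoglycan of the brain's matrix made by precursors and astrocytes, ran from 9.55 to 9.85. The differences were -0.04, -0.05 and -0.09 at days 70, 80 and 150 (SE 0.0772), and the groups overlapped at each age. The second Bcan probe set, 1416718_at, gave -0.06, -0.12 and -0.18. In TgCRND8 the 4 arrays of day 70 read 9.76, 9.81, 9.68 and 9.66, and those of day 150 read 9.65, 9.59, 9.61 and 9.66. All 4 of day 150 lay below all 4 of day 70, as was the case for 1.27% of all genes, and the difference was -0.10 log2 (SE 0.0772, exact permutation p = 0.0286, adjusted p = 0.9998 by limma). In controls the same difference was -0.06, with overlap.

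Of 16 other lecticans, link proteins and matrix partners, 11 were lower in TgCRND8 at day 70, 8 at day 80 and 7 at day 150, and 0 passed at any age by limma. With an unadjusted p under 0.05 there were 1, 0 and 2. Ncan, which encodes the related proteoglycan neurocan, differed by 0.01, -0.05 and 0.01. Acan, aggrecan of perineuronal nets, differed by -0.01, 0.17 and -0.14.

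Ptprz1 encodes a receptor tyrosine phosphatase that pleiotrophin binds. It ran from 8.85 to 9.22 over all 24 arrays, a span of 0.37 log2 that only Bcan (0.30) undercut among the 9 genes. The genotype difference was -0.05, -0.06 and -0.05 at days 70, 80 and 150 (SE 0.0725). The 4 TgCRND8 arrays of day 80 read 8.92, 8.96, 8.95 and 8.96 and the controls 8.99, 9.06, 8.94 and 9.07, so that 3 of the 4 controls lay above all TgCRND8 arrays (exact permutation p = 0.114). The second Ptprz1 probe set, 1452284_at, gave -0.07, -0.09 and 0.02, and the third, 1418690_at, gave -0.14, -0.29 and -0.11. Of 6 ligands and partners, 4 were lower at day 70, 5 at day 80 and 2 at day 150, with 0 passing by limma and 0 at an unadjusted p under 0.05 at each age. Ptn, which encodes pleiotrophin, differed by 0.06, -0.09 and -0.08, and Mdk, which encodes the related midkine, by -0.08, -0.05 and 0.21.

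Lhfpl3 encodes a tetraspan membrane protein that marks precursor cells. It ran from 5.41 to 6.14. The genotype differences were -0.10, -0.07 and -0.10 at days 70, 80 and 150 (SE 0.117), with overlap at each age. Over both genotypes the difference of day 150 minus day 80 was -0.20 log2 (SE 0.0827, exact permutation p = 0.0502, adjusted p = 0.999 by limma, where 0.011% of all genes passed). On the second Lhfpl3 probe set, 1429592_at, the gap between these ages was smaller. It read 4.35 in controls and 4.16 in TgCRND8 at day 80, and 4.23 and 4.13 at day 150. Of 4 related LHFPL genes, 1 was lower in TgCRND8 at day 70, 4 at day 80 and 3 at day 150, and 0 passed by limma.

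C1ql1 encodes a secreted C1q-like protein. Its arrays ran from 3.43 to 3.91, at the dim end. The differences were -0.06, -0.06 and -0.12 at days 70, 80 and 150 (SE 0.0829), with overlap at each age. Of the 3 measured relatives and receptors, 3 were lower at day 70, 2 at day 80 and 1 at day 150, with 0 passing by limma. C1ql3, a neuronal relative, differed by -0.02, -0.18 and 0.07.

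The second comparison was between ages. Gpr17, a receptor expressed in the short stage between precursor and oligodendrocyte, fell between day 70 and day 150 and was the only one of the 9 to pass by limma in any of the comparisons. At day 70 its control arrays read 6.80, 6.68, 6.21 and 6.51, and the TgCRND8 arrays 6.43, 6.49, 6.40 and 6.23. At day 80 the control arrays read 6.46, 6.28, 6.05 and 6.38, and the TgCRND8 arrays 6.43, 5.99, 5.99 and 6.23. At day 150 the control arrays read 5.90, 5.90, 5.89 and 6.004, and the TgCRND8 arrays 6.14, 6.03, 5.82 and 6.36. All controls of day 150 lay below all controls of day 70 (2.53% of all genes did so), whereas in TgCRND8 the highest array of day 150 lay among those of day 70.

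Over both genotypes Gpr17 fell by 0.46 log2 from day 70 to day 150 (SE 0.0861, 8 arrays per age, adjusted p = 0.0244 by limma). Among all genes 0.077% passed this comparison, 0.0495% in the downward direction, and 1 of the 9 precursor genes did. A two-sided exact permutation of the arrays within each genotype gave p = 0.000816. The difference was -0.24 between days 70 and 80 (adjusted p = 0.740 by limma, where 0% of all genes passed) and -0.22 between days 80 and 150 (adjusted p = 0.999 by limma). In controls the difference from day 70 to day 150 was -0.63 (6.55 ± 0.26 against 5.92 ± 0.06, n = 4; exact permutation p = 0.0286; adjusted p = 0.0721 by limma, where 0.022% of all genes passed). In TgCRND8 it was -0.30 (6.39 ± 0.11 against 6.09 ± 0.22; exact permutation p = 0.0571; adjusted p = 0.9998 by limma, where 0.0879% of all genes passed).

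The call on Gpr17 sat near the threshold. With 1 array left out the difference ranged from -0.52 to -0.42, and it passed in 6 of 16 such fits. It did not pass without TgCRND8 array 1 (-0.46, adjusted p = 0.0628), 2 (-0.45, 0.0638) or 3 (-0.46, 0.0580) of day 70, or control array 1 (-0.42, 0.0808) or 2 (-0.44, 0.0697) of day 70. Nor did it pass without TgCRND8 array 2 (-0.45, 0.0606) or 3 (-0.42, 0.0670) of day 150, or control array 1 (-0.46, 0.0555), 2 (-0.46, 0.0744) or 3 (-0.46, 0.0807) of day 150, all by limma. Without control array 3 of day 70, which stood apart, the fall was 0.52 (adjusted p = 0.00504 by limma) and the fall in controls alone was 0.74 (adjusted p = 0.0322). That array read the lowest Gpr17 of its group, so leaving it out must make both falls larger.

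Within groups Gpr17 moved with the first principal component of all genes (r = 0.831 over 24 arrays, group means taken away). That component was 1.39 ± 9.8 at day 70 and 1.51 ± 6.66 at day 150 (mean ± SD, 8 arrays each). With it as a covariate, an alternative chosen after the values were seen, Gpr17 fell by 0.47 log2 (SE 0.0552, adjusted p = 4.96e-05 by limma), and by 0.59 in controls (adjusted p = 0.00140).

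The genotype difference of Gpr17 was -0.16 at day 70, -0.13 at day 80 and 0.17 at day 150 (SE 0.122), with overlapping arrays at each age. Without control array 3 of day 70, the lowest Gpr17 reading of its group, it was -0.28 at that age. At day 150 the 4 controls lay within 5.89 to 6.004 and the TgCRND8 arrays spread from 5.82 to 6.36 on both sides of them. The change of this difference at day 150 against the mean of days 70 and 80 was 0.31 (SE 0.149, adjusted p = 0.865 by limma). Ordered by level, the groups ran from controls of day 70 (6.55) through TgCRND8 of day 70 (6.39), controls of day 80 (6.29), TgCRND8 of day 80 (6.16) and TgCRND8 of day 150 (6.09) to controls of day 150 (5.92), and each pair of neighbours overlapped.

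None of the other 8 precursor genes passed by limma in this comparison, and their differences were not tested against that of Gpr17. Of the 9, 6 were lower at day 150 than at day 70 over both genotypes, against 51.2% of all genes, with a median of -0.08 log2 beside -0.0024 over all genes. After Gpr17 the next was Sox6 at -0.10 (SE 0.0466), followed by Lhfpl3 (-0.10), Pdgfra (-0.09) and Bcan (-0.08), none of which passed by limma. C1ql1 (0.03), Vcan (0.03) and Cspg4 (0.10) were on the other side of 0.

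**Figure D4:**
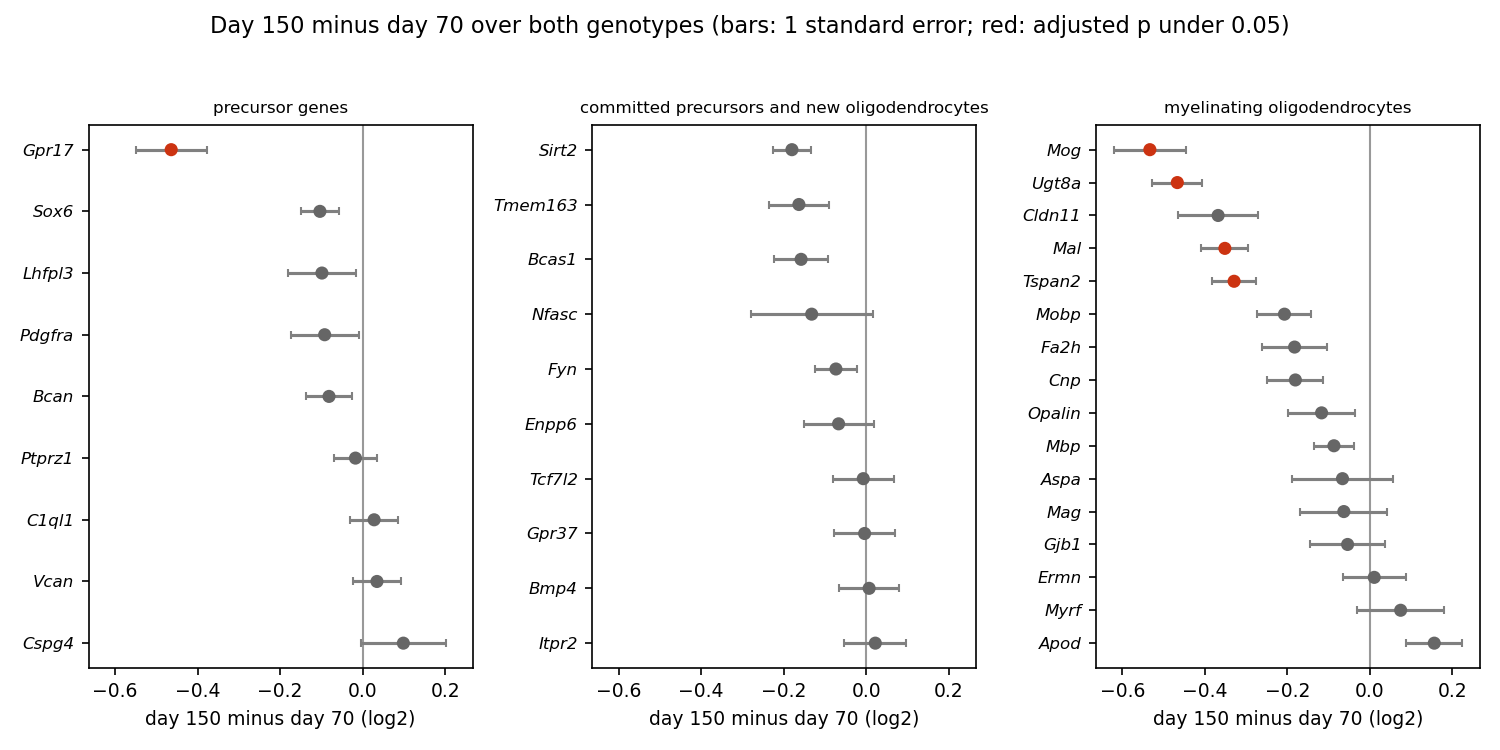
Difference of day 150 minus day 70 over both genotypes (x axis, log2) for the 9 precursor genes, 10 genes of committed precursors and new oligodendrocytes and 16 myelin genes; bars are 1 standard error and red points have an adjusted p under 0.05 by limma. Gpr17 lies at -0.46 and the other precursor genes from -0.10 (Sox6) to 0.10 (Cspg4). The myelin genes that passed, a part of their list selected by the same test, lie from -0.53 to -0.33.

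Later stages of the lineage stood as follows in that comparison. Of 10 genes of committed precursors and new oligodendrocytes, 8 were lower at day 150, with a median of -0.07 log2; 0 passed by limma and 3 had an unadjusted p under 0.05. Bmp4, a signal made by committed cells, differed by 0.01, and Enpp6, a marker of newly formed oligodendrocytes, by -0.07. Of 16 genes of myelinating oligodendrocytes, 13 were lower, with a median of -0.15, and 4 passed, all downward. Mog, a surface glycoprotein of myelin, fell by 0.53 (SE 0.0881, adjusted p = 0.00716). Ugt8a, the galactosylceramide enzyme, fell by 0.47 (adjusted p = 0.000254). Mal, of myelin lipid rafts, fell by 0.35, and the tetraspanin gene Tspan2 by 0.33 (adjusted p = 0.00590 for both by limma). These age differences use the same arrays as that of Gpr17. Over the 24 arrays Gpr17 had r = 0.611 with the mean of the myelin genes, and r = 0.041 with group means taken away. Outside the lineage, 5 of 5 genes of newborn neurons were also lower at day 150 (median -0.15), with 0 passing by limma and 3 at an unadjusted p under 0.05. Their mean deviation went from 0.13 in controls and 0.07 in TgCRND8 of day 70 to -0.14 and -0.07 at day 150. Its part in the Gpr17 and myelin values was not tested.

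Of 10 transcription factors of precursor cells, 7 were lower at day 150 than at day 70, with a median of -0.04, and 0 passed by limma (1 at an unadjusted p under 0.05). Olig2, required for the lineage, differed by -0.15, and Sox10, needed for its maturation, by 0.08. Of 11 other precursor markers, 7 were lower (median -0.07) and 0 passed by limma. The 1 with an unadjusted p under 0.05, Pcdh15, was higher, by 0.21. Of 5 genes for PDGF ligands and the other PDGF receptor, 4 were lower (median -0.09) and 0 passed (2 at an unadjusted p under 0.05). Pdgfa, the main ligand for Pdgfra, differed by -0.17 (SE 0.0662, adjusted p = 0.762 by limma). Of 6 proliferation genes 4 were lower (median -0.03) and 0 passed by limma.

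The same lists held no passing gene in the genotype differences. At day 70, 5 of 10 precursor transcription factors were lower in TgCRND8 (median 0.0079), with Olig2 at -0.26 (SE 0.124) and Sox10 at 0.02. Of the other precursor markers 7 of 11 were lower (median -0.10), of the committed stage 7 of 10 (median -0.04) and of the myelin genes 15 of 16 (median -0.17), and 0 passed in any of them by limma. With an unadjusted p under 0.05 there were 2, 1, 1 and 4 in these lists. The 2 transcription factors went opposite ways, Olig2 lower and Hes5 higher by 0.22. At day 150 the myelin genes were at a median of -0.02, with 9 of 16 lower. In that comparison 7 of 7 microglial genes were higher (median 0.24, 3 passed by limma). Of 10 astrocyte genes only Gfap passed by limma, higher by 1.42. Aqp4 was higher by 0.16, and all the other astrocyte genes were lower, down to -0.12 for Fgfr3. Of the tissue markers, the median genotype difference of 5 forebrain genes was 0.01, -0.02 and 0.01 at days 70, 80 and 150, and that of 6 hindbrain and cerebellum genes 0.04, -0.01 and -0.22. On the hindbrain and cerebellum list control array 4 of day 150 stood apart, with a mean deviation of 0.656 while the other 23 arrays reached at most 0.191. Without that array Gpr17 differed between genotypes at day 150 by 0.19 and Sox6 by 0.16, and over both genotypes Gpr17 fell by 0.48 from day 70 to day 150 (adjusted p = 0.0351 by limma). The part of these markers in the small differences of the precursor genes was not tested.

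Correlations between the precursor genes over the 24 arrays were weak to moderate. Of 36 pairs, 25 were above 0, with a median Pearson r of 0.149 beside 0.00201 over all pairs of genes. The latter includes dim genes. With all genes above the median level, the median r was 0.163 for Pdgfra, 0.152 for Gpr17, 0.105 for Ptprz1 and 0.104 for Sox6. For the other precursor genes it was lower, down to -0.057 for C1ql1. None passed after adjustment over the 36 pairs. The highest r was that of Gpr17 with Bcan (r = 0.587, permutation p = 0.00275, adjusted p = 0.0990; Spearman rho = 0.520, permutation p = 0.0103, adjusted p = 0.185). Without the 2 arrays farthest from the Gpr17 median r was 0.499. With each group's mean taken away and arrays exchanged only within their group, the same pair had r = 0.620 (permutation p = 0.00236, adjusted p = 0.0850; rho = 0.586, permutation p = 0.00426, adjusted p = 0.113), and again none of the 36 passed. Without 2 arrays it was 0.583.

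Ptprz1 with Bcan was next (r = 0.506, permutation p = 0.0111, adjusted p = 0.195; rho = 0.524, permutation p = 0.00929, adjusted p = 0.185), with r = 0.474 without the 2 farthest arrays. Pdgfra with Ptprz1 had r = 0.484 (permutation p = 0.0163, adjusted p = 0.195; rho = 0.302, permutation p = 0.153), which was 0.184 without the 2 farthest arrays, so that it rests on them. Both receptors, Pdgfra and Gpr17, had r = 0.451 (permutation p = 0.0283, adjusted p = 0.222; rho = 0.430, permutation p = 0.0374), and 0.377 without the 2 farthest. Gpr17 with Sox6 had r = 0.440 (permutation p = 0.0310, adjusted p = 0.222; rho = 0.303, permutation p = 0.149), which was 0.170 without the 2 farthest arrays and -0.09 with group means taken away. Lhfpl3 ran the other way once group means were taken away, with r = -0.554 against Gpr17 (permutation p = 0.00672, adjusted p = 0.121; rho = -0.588) and r = -0.508 against Bcan (permutation p = 0.0311, adjusted p = 0.280; rho = -0.546). The first principal component of all genes ran through several of these genes: with group means taken away its r was 0.831 with Gpr17, 0.685 with Bcan, 0.593 with Pdgfra and -0.555 with Lhfpl3, and -0.243 with Sox6. Its part in the pairwise correlations was not tested.

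**Figure D5:**
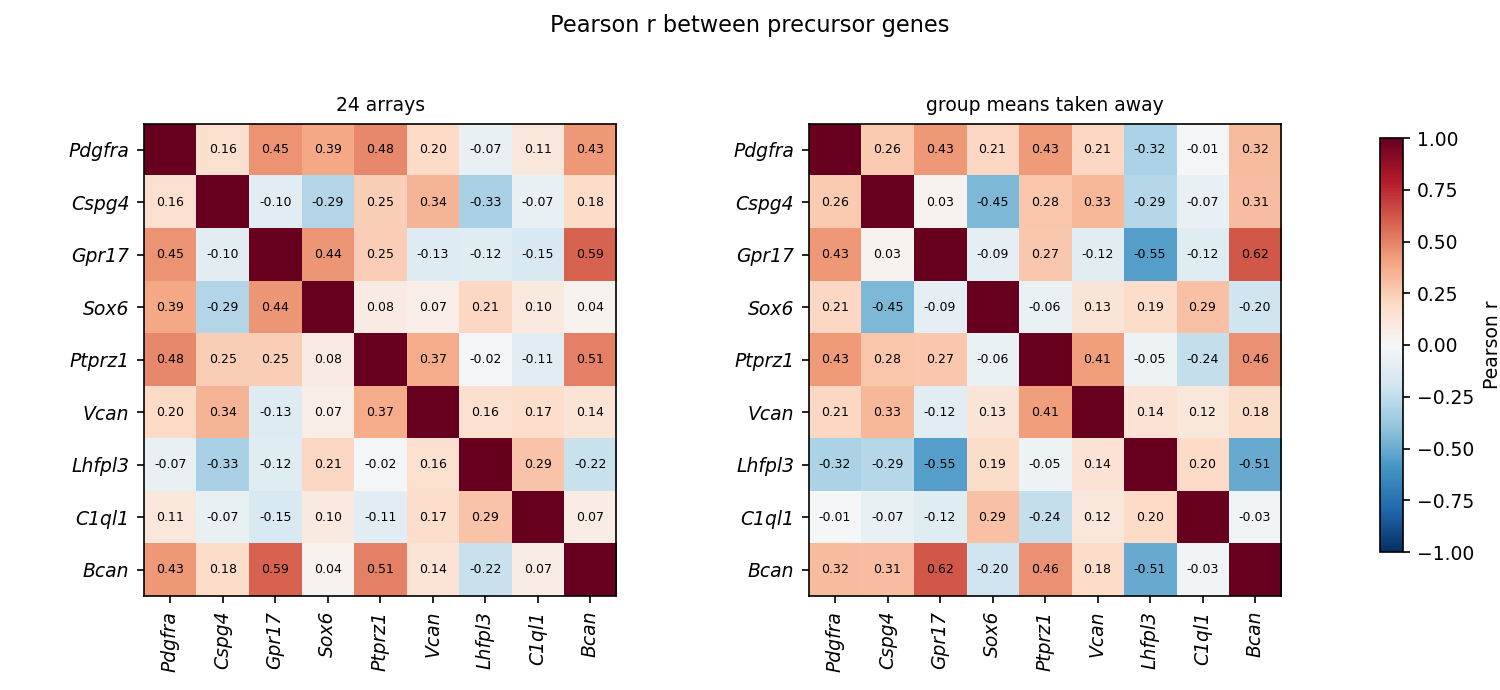
Pearson r between the 9 precursor genes over 24 arrays, as deposited (left) and with each group's mean taken away (right); the colour scale runs from -1 to 1. Gpr17 with Bcan is the highest pair on both sides (0.59 and 0.62), and Sox6 with Gpr17 goes from 0.44 to -0.09.

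Among all genes above the median level, those most like each precursor gene over the 24 arrays were listed, as a description. For Gpr17 they were Gnaz (r = 0.848), Brd1 (0.813) and Erc2 (0.806), while the median r of those genes with Gpr17 was 0.152. For Pdgfra they were Tm9sf2 (0.821), Nell1 (0.803) and Pou3f1 (0.801), with a median of 0.163. Bcan had Tle4 (0.804), Aff3 (0.794) and Sema5a (0.775), and Sox6 had Prelid1 (0.785), Lsg1 (0.752) and Rnf180 (0.706). Lhfpl3 had Igf2 (0.754), Rabepk (0.735) and Fundc2 (0.713), and Ptprz1 had Grb10 (0.723), Mtx3 (0.720) and Nup107 (0.698). For C1ql1 they were Ccnd3 (0.717), Gm3764 (0.641) and Gabrb2 (0.623). Cspg4 had Ubald1 (0.681), Dync2h1 (0.663) and Aldoa (0.652), and Vcan had Uqcc3 (0.668), Rsad1 (0.618) and Irf1 (0.588). All points share arrays and the array-wide component above, no gene was in the list of more than 1 precursor gene, and no precursor gene was in any of these lists.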

How the data were processed

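Forebrain RNA was labelled by in vitro transcription from an oligo(dT) primer and hybridised to Affymetrix arrays, per the labels' protocols. The deposited log2 values were used as given, and the sources used here do not name their normalization. Of 45101 probe sets, 34945 carried 1 gene symbol in the platform annotation, 932 several and 9160 none (64 were array controls), leaving 18193 genes by the brightest probe set. Genes and lists were chosen with earlier results of these data known (160 of 176 list genes were measured); named genes were all 9, list genes that passed (up to 4, otherwise the first 2 or a named role) and the 3 most alike per gene.

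One limma fit (limma 3.58.1, R 4.3.3) of the 6 group means gave all contrasts (18 residual and 7.47 prior degrees of freedom; median SE of a genotype difference 0.0977 log2). Single genes were also tested by exact permutation, two-sided, and correlations by 100000 permutations (within groups where group means were taken away). The 4 mice per group limit precision. On simulated data for the day 150 genotype difference over 18193 genes, 79 of 100 shifts of 0.5 log2 and 100 of 100 of 1 log2 were recovered, with 10 false calls. The simulated noise was drawn independently for each gene, without the array-wide component of the deposited data, and both sets of shifts shared the same fit. Recovery in the deposited data may therefore be lower and was not tested. Python 3.11.15, numpy 2.4.6 and matplotlib 3.10.9 were used for correlations and figures. Alternatives were other normalizations, filters, probe set rules, fits and covariates, and leaving out each array.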

Additional observations from a re-analysis of the deposited data

Results flagged for a closer look

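The Sox6 genotype difference had opposite signs at day 70 and day 150. On the brightest probe set every TgCRND8 array lay below every control at day 70 (-0.25 log2), as for 1.26% of all genes. Every TgCRND8 array lay above every control at day 150 (0.14), as for 1.53% of all genes. No other Sox6 probe set separated the genotypes at both ages. The difference on the brightest probe set thus moved by 0.39 log2. Tested over all genes, this change did not pass (limma, Benjamini-Hochberg adjusted p = 0.630; 0.011% of all genes passed, and 776 had an unadjusted p under 0.05).

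In 3 of the 54 combinations of a precursor gene and a group, 1 array stood far from the other 3 (Dixon's test); chance alone gives about 1 in 20. Gpr17 read 6.004 in control array 4 of day 150, with the other 3 within 5.886 to 5.898. Vcan read 4.421 in control array 3 of day 70, with the others within 4.632 to 4.659. Bcan read 9.574 in control array 3 of day 80, with the others within 9.772 to 9.805.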

How the results depend on the processing

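Of 2456 values of the 9 precursor genes under other settings, 109 changed sign, and in 0 of these did the difference as reported exceed its standard error. With the mean of all probe sets, Cspg4 was -0.004621 at day 70, -0.000927 at day 150 and -0.01543 over the ages, Vcan -0.05036 at day 150 and Pdgfra 0.04282 at day 80. With array weights, Cspg4 was -0.03712 at day 70 and -0.02841 over the ages, and C1ql1 was 0.0136 at day 70.

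With 1 array left out, the genotype difference of Cspg4 ran from -0.07864 to 0.1049 at day 70, from -0.191 to 0.03022 at day 80, from -0.01908 to 0.1426 at day 150 and from -0.03868 to 0.03632 over the ages. Vcan ran from -0.07406 to 0.03141 at day 70 and from -0.03268 to 0.06143 at day 150, C1ql1 from -0.1488 to 0.009007 at day 70, Sox6 from -0.08318 to 0.0159 at day 80 and Lhfpl3 from -0.1557 to 0.004726 at day 80.

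The count of precursor genes that passed was 0 for day 150 against day 70 in controls, and 1 (Gpr17) with median centring, array weights, the replicate block, an adjusted p under 0.10, both day 80 arrays numbered 1 left out, or the first principal component as covariate (added after the values were seen). With 1 array left out it was 0 to 1, and over both genotypes also 0 to 1. No other count moved. Same-numbered arrays correlated over 0.1 in 9 of 12 pairs (r from -0.321 to 0.479), with all 4 pairs of day 150 among them. Of 24 arrays, 16 matched their own number best among the 4 arrays of the other genotype at their age. A random match would be right in 1 of 4. Most arrays, though not all, thus matched their own number. Neither the main fit nor the exact permutations paired the mice by number. The fit with the replicate block lets arrays of the same number share an effect. The replicate block raised the genes passing in controls from 4 to 7, with Gpr17 at an adjusted p of 0.00993 by limma. Of 36 correlations 0 passed in any of the 3 settings.

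Over all genes, the count that passed from day 70 to day 150 over both genotypes was 14 and ran from 9 to 29 under other settings and from 6 to 18 with 1 array left out. For the genotype difference at day 150 it was 22, from 17 to 35 and from 12 to 27. Over the mean of ages it was 7, from 4 to 13, in controls 4, from 0 to 9, in TgCRND8 16, from 9 to 27, for the change at day 150 2, from 1 to 7, and for day 150 against day 80 2, from 0 to 5. The genotype difference at day 70 gave 0 (0 to 1), that at day 80 gave 0 (0 to 2 with 1 array left out) and day 80 against day 70 gave 0 (0 to 1). The cause was not tested.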
